A study of Mus musculus with 6 samples.

Results

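The 10 genes described here form the core of the liver's circadian clock together with a pair of its output factors. They were chosen by symbol, as Arntl, Clock, Npas2, Per1, Per2, Per3, Cry1, Ciart, Dbp and Tef, and all 10 were found among the 55487 genes of the deposited tables. The data are liver RNA of male C57/Bl6J mice on a high-fat diet (HFD), in 3 libraries of control and 3 of mutant genotype. By genotype label the controls carry Alb cre +/- and the mutants RXRa f/f Alb cre+/-, so that the Cre transgene is common to both groups; in the titles the controls are WT and the mutants Cre. An S65A form of Rxra is named in the design text, a floxed allele in the genotype label, and values per gene do not tell which of these the mutants carry. The albumin promoter drives the recombinase in hepatocytes, whereas the RNA is of whole liver. The age of the mice, the hour at which livers were taken and their feeding state are not in the labels used here, so each level below belongs to an unstated time of day.

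The mammalian clock is a loop of transcription that takes about a day to run. ARNTL (also called BMAL1) pairs with CLOCK or with its relative NPAS2, binds E-box sequences and drives the genes of its own repressors, the PER and CRY proteins and CIART (CHRONO). DBP and TEF are proline and acidic amino acid-rich (PAR) bZIP factors, driven by the same loop, which bind D-box sequences in genes of liver metabolism. Arntl is driven through ROR elements, where the ROR and REV-ERB nuclear receptors compete, and in liver its RNA is known to be high when that of Dbp is low. RXRα is a partner of many other nuclear receptors and is not itself part of the core loop.

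The sequences before the start sites are shown first because the E-box, the D-box and the ROR element are the elements through which these genes act on each other. RefSeq windows on GRCm38.p6, each from 250 bases before to 50 bases after a start site, were found for 9 of the 10 genes, 14 windows in all; Per2 was not matched. The letters searched on both strands were CACGTG (E-box), TTATGTAA or TTACGTAA (D-box), TAGGTCA (core of a ROR element), AGGTCA (the half-site of many nuclear receptors, which the ROR core also holds), TGACGTCA (the cyclic AMP response element) and the DR1 element of RXR dimers, a direct repeat of AGGTCA with 1 base between. Printed here are the 250 bases before the start site of Ciart, Per1, Tef, Cry1 and Per3, and for Arntl 30 bases after the start. Capitals mark the E-box in the first 4, the D-box in Per3 and the ROR core in Arntl.
Ciart (chr3:95882229-95882478, minus strand): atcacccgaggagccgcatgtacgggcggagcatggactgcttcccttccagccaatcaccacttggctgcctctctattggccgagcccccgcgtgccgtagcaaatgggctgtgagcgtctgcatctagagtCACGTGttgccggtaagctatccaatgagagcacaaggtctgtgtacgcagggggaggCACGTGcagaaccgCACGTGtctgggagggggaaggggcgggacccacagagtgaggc
Per1 (chr11:69098699-69098948, plus strand): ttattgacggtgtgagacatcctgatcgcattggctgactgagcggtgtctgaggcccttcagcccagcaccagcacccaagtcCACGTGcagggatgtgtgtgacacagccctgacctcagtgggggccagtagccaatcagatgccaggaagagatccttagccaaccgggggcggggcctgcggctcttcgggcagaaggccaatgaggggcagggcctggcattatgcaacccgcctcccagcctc
Tef (chr15:81811164-81811413, plus strand): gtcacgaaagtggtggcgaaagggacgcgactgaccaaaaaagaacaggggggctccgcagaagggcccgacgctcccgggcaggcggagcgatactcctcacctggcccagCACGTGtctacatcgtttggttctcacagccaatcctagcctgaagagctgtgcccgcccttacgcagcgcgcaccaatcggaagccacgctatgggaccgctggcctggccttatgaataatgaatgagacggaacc
Cry1 (chr10:85185055-85185304, minus strand): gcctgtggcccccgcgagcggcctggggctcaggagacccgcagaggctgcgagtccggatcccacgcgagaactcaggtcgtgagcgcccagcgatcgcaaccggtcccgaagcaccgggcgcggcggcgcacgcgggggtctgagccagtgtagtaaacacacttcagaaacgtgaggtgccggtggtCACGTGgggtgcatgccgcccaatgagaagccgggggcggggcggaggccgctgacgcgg
Per3 (chr4:151044666-151044915, minus strand): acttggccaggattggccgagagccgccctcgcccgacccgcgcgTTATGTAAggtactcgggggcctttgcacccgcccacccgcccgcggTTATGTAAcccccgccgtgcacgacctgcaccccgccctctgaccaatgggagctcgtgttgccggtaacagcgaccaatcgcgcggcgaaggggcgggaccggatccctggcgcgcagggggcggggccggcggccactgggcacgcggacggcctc
Arntl (chr7:113207531-113207560, plus strand): aggcagaaagTAGGTCAgggacggaggtgc

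Ciart held 3 E-boxes, which begin 116, 58 and 44 bases before its start site. At least 3 E-boxes were found in 29 of all 32851 windows in the table (0.0883%). Per1 held 1 E-box, 166 bases before the start, in the first of its 2 windows. The 250 bases printed for Per1 lie inside the annotated gene and hold 1 of its exon bases. Tef held 1 E-box in each of its 2 windows, 127 and 138 bases before the start. The 250 bases before the first start of Tef are all exon bases of the annotated gene. Those before the second, printed above, lie inside the gene and hold none of its exon bases. Cry1 held 1 E-box, 60 bases before the start. At least 1 E-box was found in 5 of the 14 windows of the clock genes and in 7.15% of all windows. Those 5 windows belong to Ciart, Per1, Tef and Cry1. For Dbp, Clock, Npas2, Arntl and Per3 these letters were not in the windows searched.

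Per3 held 2 D-boxes, 205 and 158 bases before the start, and at least 2 were found in 8 of all windows (0.0244%). In the second window of Arntl the ROR core begins at transcribed base 31, and it was in no other window of these genes and in 2.61% of all windows. The half-site AGGTCA was in 16.3% of all windows and, among these genes, also in Per1 and Clock. The DR1 element, found in 13 of all windows (0.0396%), and the cyclic AMP element, found in 1.79%, were in none of the 14. These are matches of letters and say nothing of binding in these livers.

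Per1, Ciart and Tef rose in the mutant livers, though Tef lost its call in 9 of the 17 alternative analyses run. Per1 was 3.05-fold, Ciart 5.46-fold and Tef 1.51-fold higher, each with no overlap in CPM between the libraries of both groups. The activator genes Arntl, Clock and Npas2 had lower means in the mutants and Per2, Per3, Cry1 and Dbp higher ones, and none of these 7 passed the test. Levels are compared between libraries as CPM, estimated counts over a common library size after TMM scaling, which sets the typical gene to the same level in both groups. The test was edgeR's quasi-likelihood test at an adjusted p under 0.05, over the 14286 genes that passed a filter on low counts. All 10 clock genes passed that filter. Npas2 did so mainly through the controls, since mutant replicates 1 and 2, at 1.58 and 0 estimated counts, were below it. Of the 10 genes 3 were called, against 13.5% of all genes. Of the 10, 3 were higher, against 6.64%, and 0 lower, against 6.82%. The 10 were chosen with earlier results of these data known, so these shares describe them and test nothing. Lower calls were also 0 of 10 with DESeq2 and at an unadjusted edgeR p under 0.05.

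CPM ranges were free of overlap in 3 of the 10 genes, against 34.9% of all genes (17.4% with the mutants above), so that separate ranges were no more common here than elsewhere. The median log2 fold change was 0.38 over the 10 genes and 0.00025 over all genes tested. In bulk tissue, fewer cells of a type and less RNA per cell cannot be told apart.

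The scaling sets part of this picture. At library totals, without composition scaling, the median of all genes was -0.40 and that of the 10 genes -0.020. There, Per1 (1.22) and Ciart (2.05) were called, 2 of the 10, where 33.6% of all genes were called, 2.05% higher and 31.6% lower. TPM, the deposited transcript abundance per gene length, carries no composition scaling either. Limma on log2(TPM + 1) called 4 of the 10 genes: Per1 (0.82, adjusted p = 0.0230) and Ciart (1.64, adjusted p = 0.00569) higher, Arntl and Clock lower, where 1.88% of genes were called higher and 63.6% lower. The direction of Per1 and Ciart was the same in all 17 alternatives run.

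**Figure D1:**
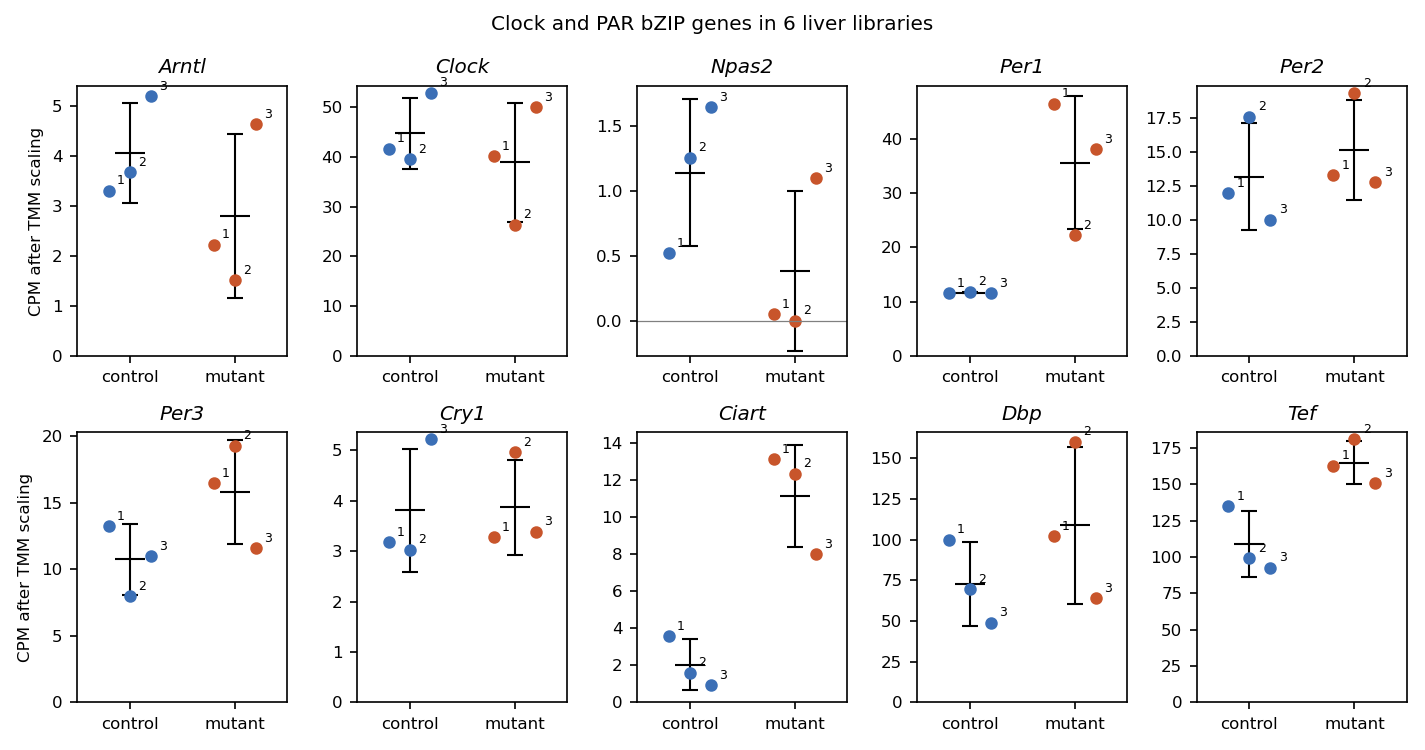
CPM after TMM scaling (vertical axes, 1 panel a gene) in the 3 control and 3 mutant libraries; numbers are replicate numbers, and horizontal lines and bars are the mean and SD of 3 libraries. For Per1, Ciart and Tef every mutant point lies above every control point, while the points of the other 7 genes overlap between the groups; the SD bar of Npas2 in the mutants reaches below 0, where no value can lie.

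Among the repressors, Per1 differed between the groups and its relatives did not pass. Per1 encodes a PERIOD protein and is known to respond quickly to hormones and to feeding as well as to the clock. The 3 control libraries held 11.6, 11.8 and 11.6 CPM of Per1 and the 3 mutant libraries 46.5, 22.3 and 38.0 CPM (replicates 1 to 3 in order, here and below). The controls were close together and the mutants wide apart, and the lowest mutant was 1.88-fold above the highest control. Group means were 11.7 ± 0.125 against 35.6 ± 12.3 CPM (control first, mean ± SD of 3 libraries, here and below). The log2 fold change was 1.61 ± 0.24 (standard error) with an edgeR adjusted p of 0.00489. The call was lost in limma on log2(TPM + 1) with no minimum (adjusted p = 0.0694). Per1 (ENSMUSG00000020893.17) lies on chromosome 11 at 69095217 to 69109960 of mm10, plus strand, and no other annotated gene overlaps it.

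Per2 encodes a PERIOD protein on which rhythm depends. Control libraries held 11.9, 17.6 and 10.01 CPM, mutant libraries 13.3, 19.3 and 12.8 CPM. The groups overlapped over most of their range, and with a log2 fold change of 0.20 ± 0.24 Per2 did not pass (edgeR adjusted p = 0.642). The ratio of Per1 to Per2 within a library, on the TPM scale, is one that no scaling of libraries can move. In log2 units it was 0.29, -0.24 and 0.55 in the controls and 2.15, 0.54 and 1.91 in the mutants. Mutant replicates 1 and 3 stood above all controls in this ratio, and mutant replicate 2 just below control replicate 3.

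Per3, a PERIOD gene that mice can lose with little effect on rhythm, stood at 13.2, 7.98 and 11.0 CPM in control and 16.5, 19.3 and 11.6 CPM in mutant libraries. Mutant replicate 3 lay within the control range and the other two above it. At 0.56 ± 0.24 its log2 fold change did not pass (edgeR adjusted p = 0.159, unadjusted p = 0.0439), and in limma on log2(TPM + 1) the value was -0.031.

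Cry1, a cryptochrome and late repressor of the loop, stood at 3.18, 3.03 and 5.22 CPM in control and 3.27, 4.96 and 3.39 CPM in mutant libraries. All mutants lay within the control range, and the log2 fold change was 0.023 ± 0.30 (edgeR adjusted p = 0.969).

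Ciart had the largest positive fold change of the 10 genes. It encodes CHRONO, a repressor that acts on ARNTL and CLOCK. Control libraries held 3.59, 1.61 and 0.922 CPM of Ciart, mutant libraries 13.1, 12.4 and 8.03 CPM. The controls varied more on the log scale than the mutants did, with control replicate 1 highest, and the lowest mutant was 2.24-fold above it. From means of 2.04 ± 1.38 against 11.2 ± 2.75 CPM came a log2 fold change of 2.45 ± 0.45 with an edgeR adjusted p of 0.0119. Without control replicate 1 it was 3.14, and without control replicate 2 the call was lost by a narrow margin (2.31, adjusted p = 0.0504). Ciart (ENSMUSG00000038550.10) lies on chromosome 3 at 95878503 to 95882251 of mm10, minus strand. An antisense gene, C920021L13Rik, overlaps its span without sharing exon bases and had at most 0.877 CPM.

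Of the PAR bZIP factors, Tef rose by a smaller margin, and that call rested on the scaling. Control libraries held 135, 99.2 and 92.7 CPM of Tef, mutant libraries 163, 181 and 151 CPM. The lowest mutant was 1.12-fold above the highest control. The log2 fold change was 0.60 ± 0.15 (edgeR adjusted p = 0.0358). The call was lost in 9 of the 17 alternatives: at both library totals (0.20 and 0.39), in the 3 limma fits, and without control replicate 2 or 3 or mutant replicate 1 or 2 (adjusted p from 0.00299 to 0.937 over the 17). On the TPM scale Tef averaged 54.7 ± 11.1 against 54.7 ± 3.31, and limma on log2(TPM + 1) gave a log2 fold change of 0.016. Tef (ENSMUSG00000022389.15, chromosome 15, 81802421 to 81826863 of mm10) shares 193 exon bases with the antisense gene Gm17597, which had at most 0.372 CPM.

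Dbp, a PAR bZIP factor with a wide daily swing in liver, stood at 99.995, 69.5 and 49.05 CPM in control and 102, 160.1 and 64.003 CPM in mutant libraries. Mutant replicate 2 was above all controls, mutant replicate 1 level with the highest control and mutant replicate 3 below 2 of them. With a log2 fold change of 0.58 ± 0.34 Dbp did not pass (edgeR adjusted p = 0.304), and limma on log2(TPM + 1) gave -0.056. Dbp shares 539 exon bases with Sphk2 on the opposite strand, and no source used here gives the strandedness of the libraries, so reads of both genes may not be told apart there. Sphk2 averaged 54.5 ± 5.23 against 63.4 ± 14.02 CPM (edgeR adjusted p = 0.427). The ratio of Tef to Dbp on the TPM scale averaged -0.46 ± 0.26 against -0.38 ± 0.53 in log2 units, with overlap.

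The activators had lower means in the mutants and wide spread. Arntl, the activator without which the loop stops, stood at 3.31, 3.68 and 5.20 CPM in control and 2.22, 1.52 and 4.64 CPM in mutant libraries. Mutant replicates 1 and 2 lay below every control, while mutant replicate 3 stood above 2 of the 3. The log2 fold change was -0.54 ± 0.41 (edgeR adjusted p = 0.429). On the TPM scale all 3 mutants were below all controls, with 2.37 ± 0.606 against 1.08 ± 0.651 TPM, and limma on log2(TPM + 1) gave -0.72 (adjusted p = 0.0340), a fit in which the median of all genes was -0.48.

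Clock, the partner of ARNTL, stood at 41.6, 39.5 and 52.9 CPM in control and 40.2, 26.4 and 49.98 CPM in mutant libraries. Only mutant replicate 2 lay below the control range. The log2 fold change was -0.20 ± 0.22 (edgeR adjusted p = 0.603), 0.0043 without mutant replicate 2, and -0.71 in limma on log2(TPM + 1) (adjusted p = 0.0262), where the groups did not overlap.

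Npas2, which can stand in for CLOCK, was the least abundant of the 10. Its deposited estimated counts were 23.8, 56.4 and 72.7 in control and 1.58, 0 and 34.0 in mutant libraries. Mutant replicates 1 and 2 were at or near 0, where a count of 0 allows up to 0.0930 CPM in mutant replicate 2 (3 counts, counting error alone), and mutant replicate 3 lay among the controls. The log2 fold change was -1.59 ± 1.19 (edgeR adjusted p = 0.4195). Without mutant replicate 3 the adjusted p was 0.0283, but the mutant group is then at 1.58 and 0 estimated counts, so that the fitted fold depends on the prior count and is not given. Since Npas2 entered that fit through the controls alone, nothing is read from that value.

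**Figure D2:**
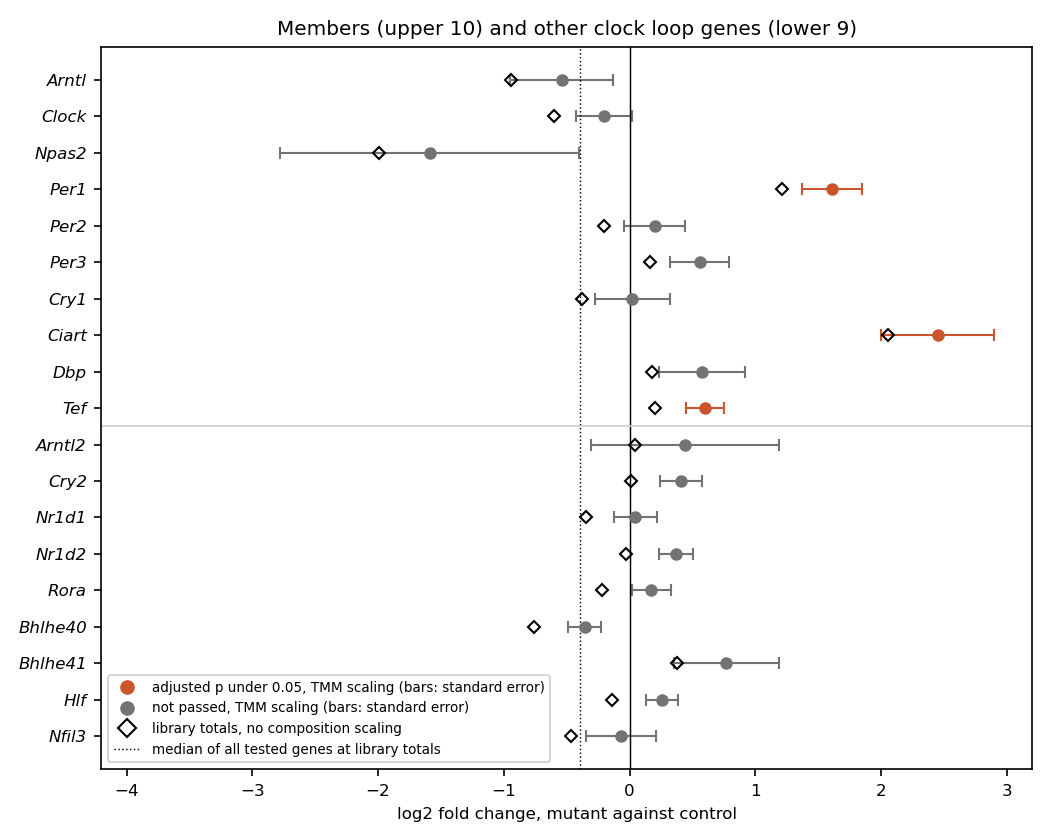
Log2 fold change of mutant against control (horizontal axis) for the 10 genes and for 9 other genes of the clock loop, with TMM scaling (filled points, bars are standard errors) and at library totals (open diamonds); the dotted line is the median of all tested genes at library totals. Per1, Ciart and Tef are the genes past an adjusted p of 0.05 with TMM scaling, and the diamonds of Per1 and Ciart stay well above 0 at 1.22 and 2.05.

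Across the 6 libraries Arntl and Dbp ran opposite to each other in CPM, in an order that did not follow the groups. From the highest Dbp to the lowest the order was mutant replicate 2, mutant replicate 1, control replicate 1, control replicate 2, mutant replicate 3 and control replicate 3, and the order of Arntl was its reverse. Spearman's rho was -1 and Pearson's r of log2 CPM -0.96, over 6 libraries of both groups that share the scaling. Leaving out any 1 library gave r from -0.99 to -0.90, and leaving out mutant replicates 1 and 2, the farthest from the median of Arntl, gave -0.93. On the TPM scale r was -0.56 and rho -0.54, while the order within each group of 3 was still opposite. The opposition is one the clock is known for and is given as a description with no test.

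The other members split between these orders. Clock ran with Arntl (r = 0.93 on log2 CPM over the 6 libraries), and Npas2 had an r of 0.97. For Npas2, mutant replicates 1 and 2 had 1.58 and 0 estimated counts, where log2 CPM depends on the prior count. Nothing is read from its r. Per3, Tef, Ciart and Per2 ran with Dbp (r = 0.79, 0.80, 0.74 and 0.64), more loosely than Clock with Arntl. Of all tested genes, 5.04%, 4.57%, 7.54% and 12.8% had a higher r with Dbp than these genes did, in the same order. Per1 and Cry1 followed neither, with r against Dbp of 0.27 and 0.030. The ratio of Arntl to Dbp, which does not depend on the scaling, was -5.79, -5.10 and -4.11 in log2 units of TPM in the controls and -6.39, -7.59 and -4.66 in the mutants. Mutant replicates 1 and 2 lay below every control and mutant replicate 3 between control replicates 2 and 3. The ratio of Arntl to Per3 gave the same placing for mutant replicates 1 and 2 (-1.83 and -2.60, against -0.93, -0.043 and -0.018 in the controls), with mutant replicate 3 at -0.25. Counted over the 10 genes, mutant replicate 3 lay inside the control range of CPM for 7 genes, mutant replicate 1 for 3 and mutant replicate 2 for 1. That count was not made over all tested genes, so whether it is particular to these genes is not known.

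**Figure D3:**
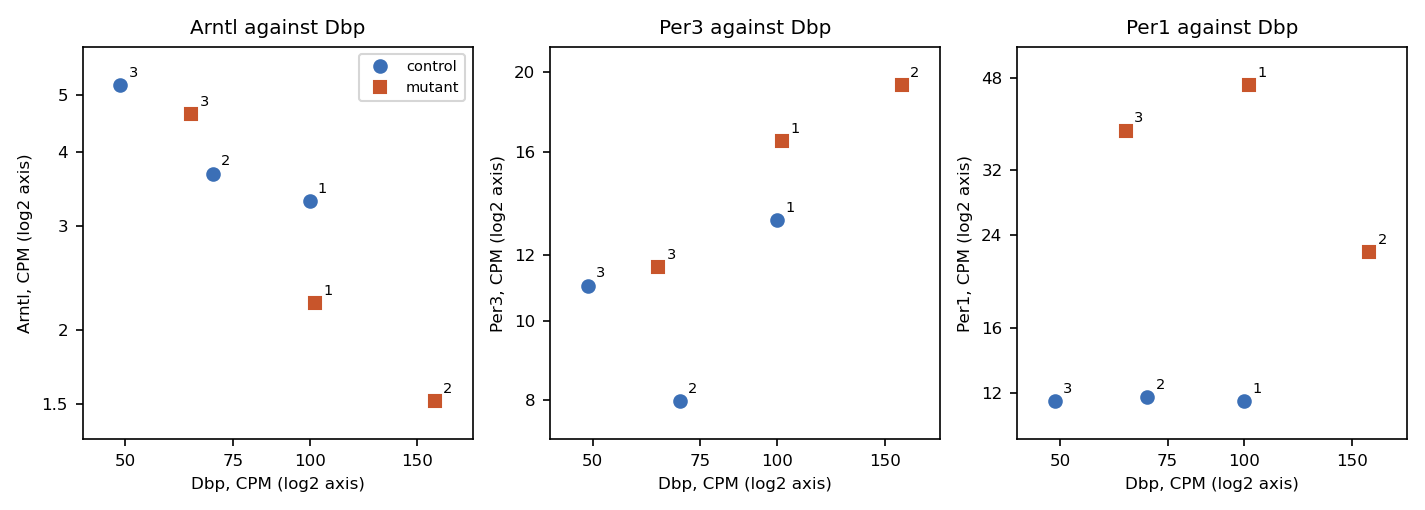
Arntl, Per3 and Per1 (vertical axes) against Dbp (horizontal axis), all in CPM after TMM scaling on log2 axes, 1 point a library with its replicate number. Arntl is lower where Dbp is higher across both groups, Per3 is mostly higher where Dbp is higher, and Per1 lies between 11.6 and 11.8 CPM in the controls at any level of Dbp.

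The genes whose libraries ran most like Arntl, by Pearson's r of log2 CPM over the 6 libraries among 10976 genes, were Btbd9 (r = 0.997), Traf3, Syne1, Tbc1d23 and Lgalsl (0.989 to 0.991). Those most like Dbp were Plpbp (0.998), Lamtor5 (0.993), Llph (0.993), Susd1 (0.991) and Cluap1 (0.985). These are the top of a long ranking over 6 points, and no gene is singled out by it. Of all tested genes, 0.882% had a higher r with Arntl than Clock did. For Npas2 the share was 0.154%, but its mutant replicates 1 and 2 were at or near 0 counts.

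Of the 10 genes, 9 varied more between libraries of a group than the typical gene did. The pooled SD within groups of log2 CPM was 1.76 for Npas2, 0.73 for Ciart, 0.62 for Arntl and 0.59 for Dbp. The median over all tested genes was 0.24. The value of Npas2 depends on the prior count, since mutant replicates 1 and 2 had 1.58 and 0 estimated counts. As percentiles of all tested genes these are 99.2, 88.7, 84.6 and 83.4. The percentiles are among genes of every level. Npas2, Ciart and Arntl had low estimated counts in some libraries, and genes of like level were not compared. Clock, Per1, Per2, Per3 and Cry1 lay between percentiles 66.9 and 69.0, and Tef, with 0.22, at 46.4. For Per1 nearly all of the spread was in the mutants, with an SD of 0.55 against 0.015 in the controls.

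By level per gene length, Dbp and Tef stood far above the rest of the 10 genes. They did not stand far above every gene of the loop, since Nr1d1 averaged 64.3 TPM in control and 44.2 TPM in mutant libraries. In the controls the order of mean TPM was Dbp (77.2 ± 26.6), Tef (54.7 ± 11.1), Clock (8.21 ± 1.41), Per1 (4.26 ± 0.0473), Per2 (3.80 ± 1.11), Per3 (2.98 ± 0.731), Ciart (2.82 ± 1.90), Arntl (2.37 ± 0.606), Cry1 (2.15 ± 0.716) and Npas2 (0.538 ± 0.272). Neighbours from Per1 to Cry1 overlapped in their ranges, as did Dbp and Tef, so only the steps from Tef to Clock, Clock to Per1 and Cry1 to Npas2 were free of overlap. In the mutants Dbp (75.6 ± 30.7) and Tef again came first, followed by Ciart (10.2 ± 2.55), Per1 (8.68 ± 3.30), Clock (4.75 ± 1.58), Per3 (2.89 ± 0.640), Per2 (2.87 ± 0.560), Cry1 (1.43 ± 0.278), Arntl (1.08 ± 0.651) and Npas2 (0.120 ± 0.196). There the steps from Tef to Ciart, Per2 to Cry1 and Arntl to Npas2 were free of overlap, and Per1 and Clock, whose order was turned, overlapped.

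Of 10 further genes of the loop, 9 were tested and 0 passed with edgeR, 0 with DESeq2, while Cry2, Nr1d2 and Bhlhe40 had an unadjusted edgeR p under 0.05. Nr1d1 and Nr1d2 encode the REV-ERB repressors of Arntl. Nr1d1 averaged 107 ± 12.2 against 110.2 ± 25.6 CPM, and Nr1d2 64.5 ± 5.58 against 83.3 ± 14.1 CPM (log2 fold change 0.37 ± 0.14, edgeR adjusted p = 0.114); at library totals both values were below 0. Rora, which encodes a ROR activator, had a log2 fold change of 0.17 ± 0.16, and Rorb had 0 counts in every library.

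Cry2, the other cryptochrome, had a log2 fold change of 0.41 ± 0.17 (edgeR adjusted p = 0.142). Bhlhe40, a repressor at E-boxes, averaged 93.5 ± 4.01 against 73.0 ± 13.4 CPM (log2 fold change -0.36 ± 0.13, edgeR adjusted p = 0.117) and was the only one of the 9 called at library totals (-0.76, adjusted p = 0.00453); without mutant replicate 2 it was called too (adjusted p = 0.0194). Its relative Bhlhe41 had 0.77 ± 0.42 (adjusted p = 0.263). Hlf, the remaining PAR bZIP factor, had 0.26 ± 0.13 (adjusted p = 0.216), Nfil3, which represses at D-boxes, -0.070 ± 0.28, and Arntl2, at under 1 CPM in each library, 0.44 ± 0.75. The median over the 9 was 0.26.

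Of 20 genes for proteins that modify, degrade or assist clock proteins, Usp2 rose (11.7 ± 6.46 against 38.2 ± 12.8 CPM, log2 fold change 1.71 ± 0.39, edgeR adjusted p = 0.0252) and the other 19 did not pass. Usp2 encodes a deubiquitinase and is itself a rhythmic gene of liver; its call was lost without any 1 of control replicates 2 and 3 and mutant replicates 1 and 2 (adjusted p from 0.0683 to 0.0833). At library totals 1 of the 20 was called higher and 9 lower, where 31.6% of all genes were called lower.

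Known rhythmic output genes of liver rose in 7 of 18 cases. Of the 18, 0 were lower with edgeR, with DESeq2 or at an unadjusted edgeR p under 0.05. Over all genes 6.64% were called higher and 6.82% lower, the background for this and the following lists. The lists were chosen with earlier results of these data known, so their shares are descriptions and test nothing. Upp2, a uridine phosphorylase, averaged 53.3 ± 24.4 against 265 ± 35.3 CPM (log2 fold change 2.32 ± 0.29, edgeR adjusted p = 0.00222). Lpin1, a phosphatidate phosphatase, averaged 34.9 ± 3.36 against 171 ± 89.0 CPM (adjusted p = 0.00534) and Noct (Nocturnin) 12.97 ± 6.03 against 51.97 ± 18.3 CPM (adjusted p = 0.0105). Por, the electron donor of cytochromes P450 and a known target of the PAR bZIP factors, averaged 227 ± 51.9 against 719.8 ± 127 CPM (log2 fold change 1.66 ± 0.19, adjusted p = 0.00164). The median log2 fold change of the 18 was 0.32, against 0.00025 over all genes. At library totals these 4 were called higher and Nampt and Insig2 lower, with a median of -0.078.

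Rhythmic genes known to follow hormones, body temperature or food were also called in part. Of 8 glucocorticoid-driven genes, 4 rose and 1 fell, with a median of 0.77, against the same 6.64% and 6.82% of all genes. Fkbp5, a co-chaperone of the glucocorticoid receptor, averaged 20.1 ± 3.91 against 110.2 ± 37.04 CPM, Zbtb16, a transcription factor, 2.49 ± 0.562 against 30.1 ± 14.9 CPM and Tsc22d3 (GILZ) 28.5 ± 1.63 against 89.4 ± 37.7 CPM. Tat, a tyrosine transaminase named after its values were seen, had a log2 fold change of 1.81 ± 0.35 (edgeR adjusted p = 0.0136), and Lcn2, an acute phase protein, fell by 2.37 on the log2 scale. Per1 is itself a known target of the glucocorticoid receptor. Among the mutants Per1 was highest in replicate 1 and lowest in replicate 2. Of the 8 glucocorticoid-driven genes, Fkbp5 (148, 73.8 and 109 CPM) and Zbtb16 had this order, as did Mt1 and Mt2, which did not pass. Tat, Tsc22d3, Sgk1 and Lcn2 did not have it. Genes of the other lists had it too, among them Lpin1 (263, 85.0 and 165 CPM), Noct (67.4, 31.8 and 56.8 CPM) and Rbm3 (67.2, 45.4 and 59.7 CPM). Upp2, Por and Pck1 did not. The order was thus not particular to the glucocorticoid-driven list, and how common it was over all genes was not counted. This order was noticed after the values were seen, and what part glucocorticoids had in the level of Per1 was not tested.

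Of 10 genes of heat shock or cold response, 6 rose and 0 were lower with edgeR, with DESeq2 or at an unadjusted edgeR p under 0.05. Among the 6 were the chaperone genes Hspa8 (898 ± 107 against 1544 ± 240.0 CPM), Hsph1 (25.7 ± 3.94 against 63.2 ± 15.01 CPM) and Dnaja1 (208 ± 5.32 against 306 ± 48.7 CPM) and the cold-inducible Rbm3 (35.8 ± 6.02 against 57.4 ± 11.1 CPM). At library totals Hsph1 was called higher and Hspa1a lower among the 10. Of the 13 tested genes of feeding and fasting, 2 rose and 2 fell. Pck1 (937 ± 135 against 3441 ± 1007 CPM) and Angptl4 (90.9 ± 21.5 against 183 ± 8.05 CPM), known to be higher in fasting, rose. Srebf1 (142 ± 12.6 against 93.2 ± 9.54 CPM), higher after food, and Fgf21 (15.2 ± 4.21 against 6.33 ± 1.67 CPM), which fasting induces, fell. At library totals the same 4 glucocorticoid-driven genes were called higher and Lcn2 and Sgk1 lower, and of the feeding genes the same 2 were higher and Srebf1, Fgf21, Fasn and Pdk4 lower. What part temperature or food had in the levels of the clock genes was not tested.

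**Figure D4:**
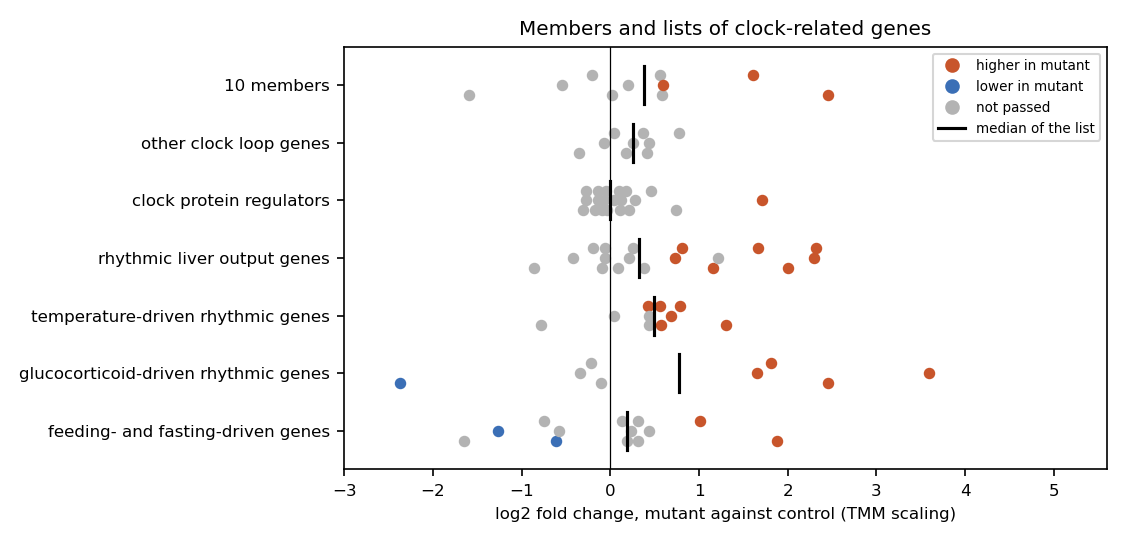
Log2 fold change of mutant against control with TMM scaling (horizontal axis), 1 point a tested gene, for the 10 clock genes and 6 lists of related genes; vertical black bars are the medians. The other clock loop genes lie within 1 log2 unit of 0, while single genes of the glucocorticoid-driven list reach from -2.37 to 3.59.

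Library totals ran from 35847386 to 43162557 estimated counts. Rxra as a whole had 414 to 501 CPM in the controls and 522 to 699.9 CPM in the mutants (log2 fold change 0.40 ± 0.13, edgeR adjusted p = 0.0724), which says nothing of the form encoded. Major urinary protein genes took 1.85% to 3.09% of the estimated counts in the controls and 12.8% to 16.9% in the mutants. Hepatocyte markers summed to 73460 to 85452 CPM in the controls against 80199 to 91335 CPM in the mutants, and 3 of 8 rose. Of the markers of other liver cells, 7 of 8 of stellate cells and fibroblasts fell (summed 333 to 353 against 123 to 158 CPM). Of 10 markers of Kupffer cells and macrophages 3 fell and 7 did not pass (300.5 to 421 against 140.0 to 265 CPM), and of 8 of endothelium 2 fell and 6 did not pass, with overlapping sums (131 to 253 against 101 to 171 CPM). Cholangiocyte markers had 1 higher and 1 lower of 5 tested (62.9 to 91.6 against 32.05 to 47.7 CPM). Most of that sum was Spp1, the lower one (66.8 ± 14.4 against 30.6 ± 8.04 CPM), so the fall of the sum is that of Spp1. Sox9, the higher one, averaged 5.25 ± 0.637 against 8.66 ± 1.70 CPM. Lymphocyte and neutrophil markers had 1 higher and 2 lower of 10 (8.03 to 9.76 against 5.23 to 6.54 CPM). Both tested adipocyte markers, Cfd and Fabp4, fell, and they made up nearly all of the sum of the list (15.4 to 34.7 against 2.04 to 4.09 CPM). Adipoq, Plin1, Lep and Retn did not pass the filter on low counts. Adipoq was at 0 in every control, Plin1 and Retn at 0 in every mutant and Lep at 0 in every library. The clock runs in these cells too, and the part of the cell mixture in the levels of the clock genes was not tested.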

How the data were processed

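Poly(A)-enriched liver RNA of 6 libraries was sequenced in paired reads of 150 bases, per the labels' protocols. Per the submitters' processing notes, cutadapt, STAR and build mm10 were used; no source used here names the quantifier, the annotation or the strandedness. The authors deposited estimated counts and TPM, in a table each. Over 10983 genes the deposited estimated counts equalled TPM times a gene factor and a library factor (largest relative deviation 5.72e-10), so they are not numbers of reads, and limits from them cover counting error only. Columns were matched by sample title, with 0 left over.

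The counts were rounded for edgeR 4.0.16 (R 4.3.3; filterByExpr, TMM, quasi-likelihood F-test on group alone, Benjamini-Hochberg). Standard errors came from the F statistic, and log2 CPM had a prior count of 2. No label says in words that libraries are separate animals, so p-values measure the spread between libraries. The members and the 16 lists (147 genes) were chosen with earlier results of these data known; 1 further listed gene is not reported here. Named were the members, the tested clock loop genes and up to 4 called genes of each other list by smallest p. The 5 genes most like Arntl and the 5 most like Dbp were named too. Markers were given mainly as sums and counts. Tat, Mt1, Mt2, genes called only at library totals and single cholangiocyte and adipocyte markers were added after their values were seen. Gene spans are from GENCODE mouse release 21 on mm10, which held all 10 identifiers.

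Alternatives were RLE factors, library totals with and without major urinary protein genes, dropping the filter or setting it on CPM, robust edgeR, DESeq2 1.42.0, a replicate block, limma 3.58.1 on log2(TPM + 1) or log2(TPM + 0.1) with a minimum of 1 TPM in at least 3 libraries, log2(TPM + 1) with no minimum, and each library left out. The edgeR procedure was also tested on simulated data.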

Additional observations from a re-analysis of the deposited data

How the results depend on the processing

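Over the alternatives, values of the 10 members kept their direction and side of the threshold 130 times, lost a call 11 times, gained one 5 times and changed sign 21 times; for the other named genes these counts were 376, 27, 6 and 30. The count of called members, 3, was 1 in limma on log2(TPM + 1) with no minimum and ranged from 1 (without control replicate 2) to 4 (without mutant replicate 3) on leaving out a library. The 1923 genes called over all (949 higher, 974 lower) became 4801 (293 and 4508) at library totals, 405 higher and 1968 lower at totals without major urinary protein genes, 1475 lower with DESeq2, and 7579 (217 and 7362), 7526 (211 and 7315) and 6581 (190 and 6391) in limma on log2(TPM + 1), log2(TPM + 0.1) and log2(TPM + 1) with no minimum. Leaving out a library gave 882 to 1514 calls (426 to 758 higher, 430 to 756 lower), with 886, 956 and 1018 without control replicates 1, 2 and 3 and 882 without mutant replicate 1, where fewer samples entered. For the other changes the cause was not tested.

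Log2 fold changes turned below 0 at library totals for Per2 (-0.20), Cry1 (-0.38), Nr1d1 (-0.35), Nr1d2 (-0.028), Rora (-0.22) and Hlf (-0.14), and without major urinary protein genes in the totals for Per2 (-0.0073), Cry1 (-0.18), Nr1d1 (-0.17) and Rora (-0.038). In limma on log2(TPM + 1), with the minimum and without, they did so for Per2 (-0.30), Per3 (-0.031), Cry1 (-0.35), Dbp (-0.056), Cry2 (-0.16), Nr1d1 (-0.56), Nr1d2 (-0.23), Rora (-0.38), Hlf (-0.32) and Dnaja1 (-0.052), and with no minimum for Arntl2 (-0.021). On log2(TPM + 0.1) the same 10 genes, Per2 to Dnaja1, had -0.37, -0.039, -0.52, -0.057, -0.18, -0.57, -0.24, -0.42, -0.33 and -0.052. The medians of all genes in these fits were -0.40, -0.21, -0.48, -0.24 with no minimum and -0.55 with 0.1. On leaving out a library, ranges that crossed 0 were -0.20 to 0.32 for Cry1, -0.024 to 0.46 for Per2, -0.42 to 0.0043 for Clock, -0.046 to 1.26 for Arntl2, -0.36 to 0.16 for Nfil3 and -0.11 to 0.21 for Nr1d1. The CPM filter and the limma fits with a minimum gave no value for Npas2.

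The shared replicate numbers gave no sign of pairing, since deviations of same-numbered libraries correlated at 0.017, -0.0032 and 0.063. With the replicate number as a block the called members were again 3 and the genes called 1558. The limits are 3 libraries a group, low estimated counts and the unstated time of day. Estimated counts were under 100 for Npas2 in every library. They were also under 100 for Ciart in control replicates 2 and 3 (71.9 and 41.2) and for Arntl in mutant replicates 1 and 2 (84.6 and 49.0).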
